A study of Rattus norvegicus with 8 samples.

Results

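The genes described here were 10 genes of glycosaminoglycan synthesis and sulfation, chosen by name because of what their products do: Ugdh, Slc26a2, Papss2, Xylt1, Csgalnact1, Chsy1, Chpf, Chst11, Chst3 and Ext1. All 10 were found in the expression table of 31699 rows, and 9 of them were among the 13103 genes that were kept for testing because their TPM averaged 1 or more across all 8 samples (TPM, the deposited unit, is a gene's reads per unit length as a share of the library, so levels can be compared between genes). Chst3 did not pass this filter. Glycosaminoglycans are long sugar chains built on the core proteins of proteoglycans. A short linkage of xylose, galactose and glucuronic acid is first placed on a serine of the core protein, and the chain is then extended as chondroitin or as heparan and decorated with sulfate. In the annulus fibrosus and the nucleus pulposus of the intervertebral disc, the sulfated chains of aggrecan hold water and help the tissue to bear load.

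The samples were cultured annulus fibrosus cells (AFCs) of Sprague Dawley rats, isolated from pooled tissue of several animals and used after passaging. The Lv-Ctrl group (4 samples) received the lentiviral vector pLVX-shRNA-Puro, and the Lv-Piezo1 group (4 samples) received pLVX-shRNA-Puro-Piezo1, which carries a short hairpin RNA against the mechanosensitive cation channel Piezo1. The virus was applied at a multiplicity of infection of 20 for 24 h, and both groups were then put under cyclic mechanical stretch (CMS) of 20% elongation at 0.5 Hz for 36 h, so every value below comes from stretched cells. The comparison asks how gene expression under CMS differed between AFCs given the Piezo1 hairpin and AFCs given the control vector. The study's methods describe the 4 samples of a group as biological repeats and a repeat as cells of a separate isolation from pooled rats. They also describe the cells of an isolation as receiving the different treatments, with a maximum of 4 repeats. By that description both groups drew on the same isolations. The methods did not state whether samples with the same number in both groups came from the same isolation.

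The transcript of the targeted gene went against the label. Piezo1 stood at 30.1 ± 2.67 TPM (SD, n = 4) in the samples labelled Lv-Ctrl. It stood at 39.4 ± 1.75 TPM (SD, n = 4) in those labelled Lv-Piezo1, a log2 fold change of 0.38 (SE 0.06, limma adjusted p = 8.6e-04). The study checked the hairpin by other assays, which are not used here. Directions below are worded by label, with Lv-Piezo1 set against Lv-Ctrl. Pearson correlations of log2(TPM + 1) between samples were 0.973 to 0.983 within a group and 0.939 to 0.945 between groups, and mitochondrially encoded genes took 7.03 to 7.90% of TPM in Lv-Ctrl and 6.05 to 6.53% in Lv-Piezo1. Of the 8 annulus fibrosus and fibroblast markers tested, 6 were higher and 2 were lower at an adjusted p below 0.05. By the same rule, 41.9% of all tested genes were higher and 16.3% lower. The lower markers were Fmod and Mkx, with log2 fold changes of -0.99 and -0.76. The summed TPM of the list was 5671 to 6409 in Lv-Ctrl and 10393 to 11108 in Lv-Piezo1. Most of the sum came from Col1a1 (means of 3282 and 5835 TPM) and Col1a2 (2316 and 3795 TPM). The tendon and annulus marker Tnmd was at or near 0 in every sample.

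The 10 genes did not move as a block. At an adjusted p below 0.05, 6 of the 9 tested genes were higher in the samples labelled Lv-Piezo1 (Ugdh, Slc26a2, Csgalnact1, Chsy1, Chpf and Ext1), 2 were lower (Papss2 and Xylt1) and 1 did not pass (Chst11). Among all tested genes, 41.9% were called higher and 16.3% were called lower by the same rule, so calls of this kind were frequent throughout the table. The lower calls of Papss2 and Xylt1 were each lost in 6 of 8 fits that left out 1 sample. No member was called with a log2 fold change of 1 or more in either direction, which 7.67% of all tested genes were. The lowest and highest samples of the groups left no overlap for 6 of the 9 tested members, against 54.2% of all tested genes, and for Chst3, which was not tested. The median log2 fold change was 0.26 over the 9 tested members and 0.14 over all tested genes.

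**Figure D1:**
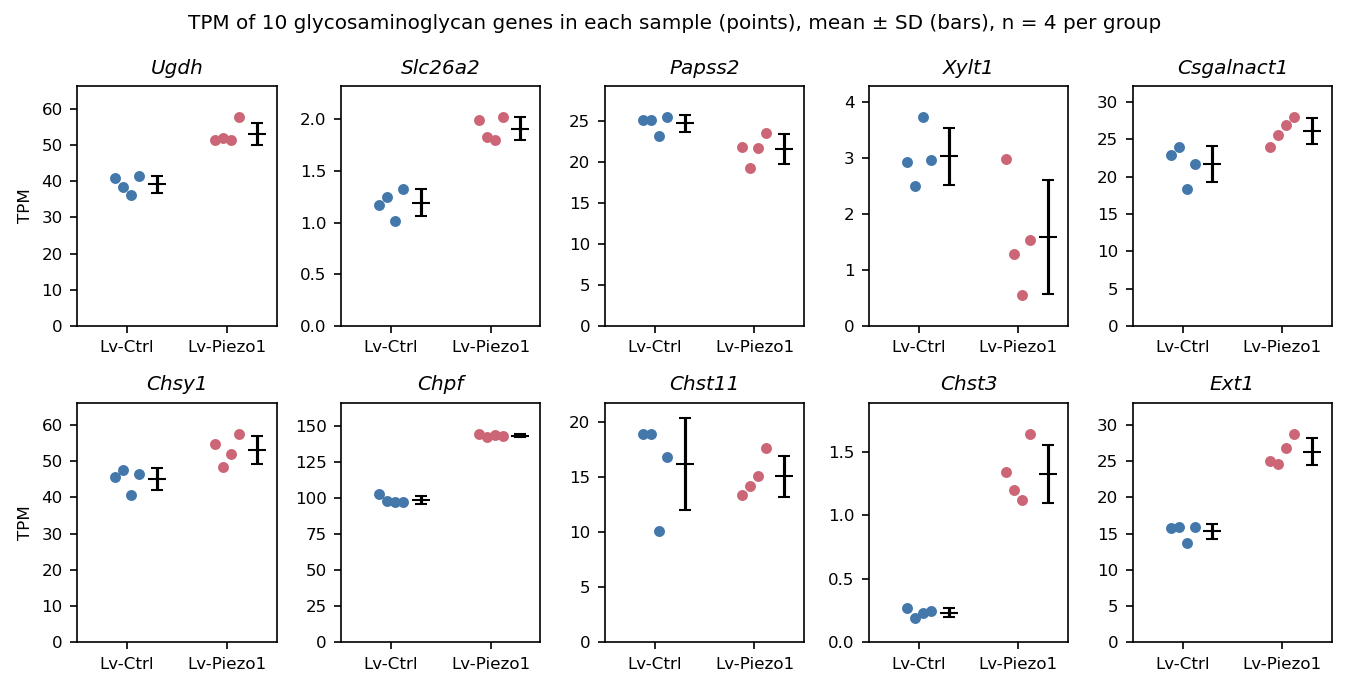
TPM of each of the 10 genes (vertical axis, starting at 0, scaled separately for each gene) in the 4 Lv-Ctrl samples and the 4 Lv-Piezo1 samples. Points are samples and the bars beside them are the mean ± SD. Chpf, Ext1, Ugdh and Chst3 show clear gaps between groups, while the 3 genes Papss2, Xylt1 and Chst11 overlap.

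Because the median gene was itself 0.14 higher on the log2 scale, the calls were also read after median-ratio scaling, which brought that median to -0.0046 and turned a split of 5489 higher and 2137 lower genes (72.0% higher) into 3657 higher and 3651 lower genes (50.04% higher). Chpf, Ext1, Ugdh and Slc26a2 were still called higher after this scaling, and Papss2 and Xylt1 were still called lower. Chsy1 and Csgalnact1 were no longer called, with limma adjusted p-values of 0.24 and 0.19. The direction of all 9 tested members was the same on both scales.

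**Figure D2:**
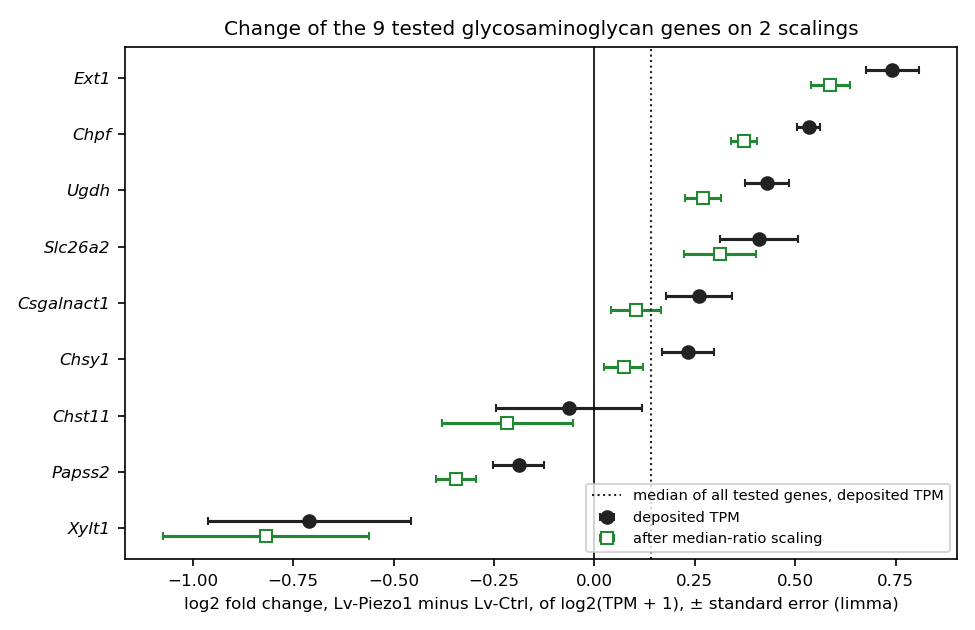
Log2 fold change of the tested members, Lv-Piezo1 relative to Lv-Ctrl (horizontal axis, on the log2(TPM + 1) scale), for the deposited TPM and after median-ratio scaling. Bars are standard errors from limma and the dotted line is the median of all tested genes, 0.14. The 9 genes keep their side of 0, and Chsy1 and Csgalnact1 move close to it after scaling, to 0.07 and 0.10.

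Other cell markers also differed between the groups. Of 9 tested smooth muscle and pericyte markers, 7 were higher and 2 were lower, so this list split in direction. Abcc9 and Kcnj8 were the lower genes, with log2 fold changes of -2.49 and -3.03. The list summed to 841 to 878 TPM in Lv-Ctrl and 4635 to 4800 TPM in Lv-Piezo1. Most of the Lv-Piezo1 sum came from Tagln and Acta2, whose log2 fold changes were 3.63 and 4.69. The chondrocyte and nucleus pulposus list summed to 9.12 to 10.2 TPM in Lv-Ctrl and 27.4 to 32.0 TPM in Lv-Piezo1. Its defining genes Tbxt, at 0 in every sample, and Col2a1, at 0.47 and 0.43 TPM, were nearly absent. Of its 3 tested genes 2 were higher, Cd24 and Comp. Most of the rise of the sum came from Cd24 alone, at 3.79 and 21.9 TPM. The other tested gene, Sox9, did not pass (3.89 and 3.86 TPM, limma adjusted p = 0.94). Comp (0.738 and 2.86 TPM) reached the filter through its level in Lv-Piezo1, so its direction was fixed by the filter. The macrophage list summed to 0.64 to 2.30 TPM in Lv-Ctrl and 11.7 to 13.9 TPM in Lv-Piezo1. Its defining markers Adgre1 and Cd163 were at 0. Cd68, its only tested gene, stood at 0.955 and 12.3 TPM. Cd68 also reached the filter through its level in Lv-Piezo1, so its higher direction was fixed by the filter. The 6 endothelial markers summed to at most 0.62 TPM and the erythroid marker Alas2 to at most 0.04 TPM, and none of these was tested. The part of these cell markers in the results below was not tested, and in bulk RNA fewer cells of a type and less RNA per cell cannot be told apart.

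Of the genes that supply building blocks, Ugdh and Slc26a2 were higher and Papss2 was lower. Ugdh (ENSRNOG00000002643) encodes UDP-glucose dehydrogenase, which makes the UDP-glucuronic acid needed for chondroitin, heparan and hyaluronan. Its values were 40.8, 38.5, 36.2 and 41.4 TPM in Lv-Ctrl and 51.4, 52.1, 51.4 and 57.7 TPM in Lv-Piezo1. Every Lv-Piezo1 sample was above every Lv-Ctrl sample. The means rose from 39.2 ± 2.38 to 53.2 ± 3.05 TPM (SD, n = 4), a ratio of 1.36, with a log2 fold change of 0.43 (SE 0.06, limma adjusted p = 1.6e-04).

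Slc26a2 (ENSRNOG00000018082) encodes the sulfate transporter of the plasma membrane whose loss causes diastrophic dysplasia, a disorder of undersulfated cartilage proteoglycan. It was weakly expressed, at 1.17, 1.25, 1.02 and 1.33 TPM in Lv-Ctrl and 1.99, 1.83, 1.80 and 2.02 TPM in Lv-Piezo1. The groups did not overlap, and the ratio of the means was 1.60 (log2 fold change 0.41, SE 0.10, limma adjusted p = 0.0059). The call was lost after quantile normalization (log2 fold change 0.17, adjusted p = 0.13). Its relative Slc26a1, another sulfate transporter, stood at 0.36 and 0.39 TPM.

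Papss2 (ENSRNOG00000011068) encodes an enzyme that turns sulfate into PAPS, the donor used by all sulfotransferases. It measured 25.1, 25.1, 23.1 and 25.4 TPM in Lv-Ctrl and 21.8, 19.2, 21.7 and 23.5 TPM in Lv-Piezo1. The highest Lv-Piezo1 sample lay above the lowest Lv-Ctrl sample, so the groups overlapped. On the deposited scale the log2 fold change of -0.19 (SE 0.06, limma adjusted p = 0.028) was small. The exact two-sided permutation test of the means gave p = 0.057. The call was lost in 6 of 8 fits of the deposited values that each left out 1 sample (adjusted p 0.052 to 0.071). Rescaling made the fall larger: median-ratio factors gave -0.34 (limma adjusted p = 3.9e-04) and quantile-normalized values gave -0.33 (limma adjusted p = 6.8e-04). The other PAPS synthase gene, Papss1, moved the opposite way, from 32.3 ± 1.38 to 40.4 ± 1.44 TPM (SD, n = 4; log2 fold change 0.31, limma adjusted p = 2.4e-04).

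Xylt1 (ENSRNOG00000056658) encodes a xylosyltransferase, the enzyme that adds the first sugar of the linkage and so starts chondroitin and heparan chains alike. It had the lowest fold change of the members and the least even values. Its TPM was 2.93, 2.50, 3.73 and 2.97 in Lv-Ctrl and 2.99, 1.28, 0.56 and 1.54 in Lv-Piezo1. Replicate 1 of Lv-Piezo1 lay among the Lv-Ctrl samples, while the other 3 lay below all of them, and the coefficient of variation within Lv-Piezo1 was 64.0%. The log2 fold change was -0.71 (SE 0.25, limma adjusted p = 0.037), and the exact permutation test of the means gave p = 0.11. The call was lost in 6 of the 8 fits that left out 1 sample (adjusted p 0.066 to 0.088) and with no filter on low TPM (0.061), and without replicate 1 of Lv-Piezo1 it had a log2 fold change of -0.94 with an adjusted p of 0.0037.

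RefSeq promoter windows of the rat genome build GRCr8 were found for 8 of the 10 genes. The upstream sequences of Ugdh, Xylt1 and Papss2 are shown so that a member that rose and the members that fell can be read side by side. The GC box GGGCGG, searched on both strands from 250 bases before to 50 after the gene start, was present in 7 of the 8 windows and in 33.1% of all 33469 windows. Xylt1 was the member without it. The TEAD core GGAATG was in 1 of 8 (Ugdh, 14.2% of all windows), the TATA box TATAAA in 1 of 8 (Papss2, 14.2%), the E-box CACGTG in 1 of 8 (Slc26a2, 6.42%) and the AP-1 motif TGANTCA in 0 of 8 (7.33%). The Papss2 TATA match, 51 bases before the start used for the window, lies inside the gene's own model and outside the stretch shown. The 250 bases before the start held 66.0 to 84.8% G and C in the 8 genes, against a median of 51.2% over all windows, and a GC box is made of these bases. For Ugdh and Papss2 some of the 250 bases lie inside the gene's own model. The sequences, cut back to bases outside the gene's own model, are given 5′ to 3′ on the plus strand, with GC boxes and the TEAD core in capitals. They are Ugdh at chr14:43202268-43202479, which overlaps the model of Rplp2l3, Xylt1 at chr1:181077972-181078221 and Papss2 at chr1:239867463-239867596.
Ugdh: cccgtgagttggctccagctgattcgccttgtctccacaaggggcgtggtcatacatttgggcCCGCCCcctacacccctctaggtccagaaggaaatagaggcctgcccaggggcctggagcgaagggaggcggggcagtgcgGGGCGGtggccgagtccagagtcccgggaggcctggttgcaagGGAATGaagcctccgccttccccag
Xylt1: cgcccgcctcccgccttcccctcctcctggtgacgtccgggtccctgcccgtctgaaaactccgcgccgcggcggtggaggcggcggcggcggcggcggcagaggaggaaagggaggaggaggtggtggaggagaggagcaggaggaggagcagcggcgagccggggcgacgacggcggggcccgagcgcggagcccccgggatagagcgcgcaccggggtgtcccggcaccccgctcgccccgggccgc
Papss2: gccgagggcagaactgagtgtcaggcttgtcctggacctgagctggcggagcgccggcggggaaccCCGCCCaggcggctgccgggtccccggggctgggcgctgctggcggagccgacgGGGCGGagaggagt
The Ugdh stretch holds 2 GC boxes and 1 TEAD core, the Papss2 stretch 2 GC boxes, and the Xylt1 stretch none of these letters in a row, although 78.4% of its bases are G or C. A match of letters is a description of the window and not evidence of a bound factor.

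The 3 members that start and extend the chondroitin chain were all higher, by unequal amounts. Csgalnact1 (ENSRNOG00000013024) adds the first N-acetylgalactosamine and so commits a linkage to chondroitin. It measured 22.88, 23.96, 18.35 and 21.64 TPM in Lv-Ctrl and 23.98, 25.56, 26.96 and 27.93 TPM in Lv-Piezo1. The gap between the groups was 0.02 TPM. The log2 fold change was 0.26 (SE 0.08, limma adjusted p = 0.023), and the call was lost without Lv-Ctrl replicate 4, Lv-Piezo1 replicate 3 or Lv-Piezo1 replicate 4 (adjusted p 0.050 to 0.064).

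Chsy1 (ENSRNOG00000012698) encodes a chondroitin synthase that adds the alternating sugars of the chain. It measured 45.6, 47.4, 40.6 and 46.3 TPM in Lv-Ctrl and 54.5, 48.4, 51.8 and 57.5 TPM in Lv-Piezo1. The groups were 1.02 TPM apart at their nearest samples, and the log2 fold change was 0.23 (SE 0.06, limma adjusted p = 0.012).

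Chpf (ENSRNOG00000020038) encodes the chondroitin polymerizing factor, the partner that chondroitin synthases need for long chains. It was the most abundant member and had the tightest values, at 103, 98.1, 97.2 and 97.5 TPM in Lv-Ctrl and 145, 142, 144 and 143 TPM in Lv-Piezo1. All Lv-Piezo1 samples were at least 39.3 TPM above all Lv-Ctrl samples. The ratio of the means was 1.45 and the log2 fold change was 0.53 (SE 0.03, limma adjusted p = 6.9e-07). In the RefSeq annotation Chpf overlaps the gene model of Obsl1, which was also higher (9.50 to 16.4 TPM, log2 fold change 0.73). Whether counting used the strand was not stated, so reads of the overlap cannot be assigned to either gene with certainty.

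The pair of chondroitin sulfotransferases gave different pictures. Chst11 (ENSRNOG00000008885), which places sulfate on carbon 4 of N-acetylgalactosamine, measured 18.9, 18.9, 10.1 and 16.8 TPM in Lv-Ctrl and 13.4, 14.2, 15.1 and 17.7 TPM in Lv-Piezo1. The Lv-Piezo1 samples lay inside the range of the Lv-Ctrl samples. The log2 fold change was -0.06 (95% confidence interval -0.48 to 0.35, limma adjusted p = 0.79), an interval wide enough to hold changes of the size seen for Ugdh in the downward direction. Without Lv-Ctrl replicate 3, the sample at 10.1 TPM, the log2 fold change was -0.26 with an adjusted p of 0.042.

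Chst3 (ENSRNOG00000000572), which places sulfate on carbon 6 of the same sugar, had the highest ratio of the 10 genes at the lowest level. It measured 0.27, 0.19, 0.23 and 0.25 TPM in Lv-Ctrl and 1.34, 1.20, 1.12 and 1.64 TPM in Lv-Piezo1. The groups did not overlap, the ratio of the means was 5.64, and the exact permutation test gave p = 0.029, the smallest that 4 against 4 samples can give. Its mean of 0.78 TPM over the 8 samples kept it out of the tested genes. With no filter on low TPM it had a log2 fold change of 0.91 and a limma adjusted p of 3.2e-05, on the log2(TPM + 1) scale, which understates the change of a gene at this level. Reads per sample cannot be recovered from TPM, so the number of reads behind these values is unknown.

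Ext1 (ENSRNOG00000024886) encodes a subunit of the heparan sulfate polymerase, which adds the alternating sugars of the heparan chain. Its values were 15.78, 15.85, 13.71 and 15.90 TPM in Lv-Ctrl and 24.97, 24.60, 26.83 and 28.74 TPM in Lv-Piezo1. The nearest samples of the groups were 8.70 TPM apart. The means were 15.3 ± 1.07 and 26.3 ± 1.91 TPM (SD, n = 4), a ratio of 1.72, and the log2 fold change of 0.74 (SE 0.07, limma adjusted p = 1.5e-05) was the highest among the 9 tested members. The genes with values most like those of Ext1 were Snx18, Kifc1 and Tent5a, each with a Pearson r of 0.9987 over the 8 samples, which share the difference between groups.

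Ranked by TPM, Chpf was highest and Chst3 lowest in both groups. In Lv-Ctrl the order below Chpf was Chsy1, Ugdh, Papss2, Csgalnact1, Chst11, Ext1, Xylt1 and Slc26a2, where Chsy1 and Ugdh overlapped, as did each neighbour from Papss2 to Ext1. In Lv-Piezo1 Ugdh and Chsy1 overlapped at 53.2 and 53.1 TPM, Ext1 had moved above Papss2 and Chst11 and overlapped Csgalnact1, and the neighbours from Slc26a2 to Chst3 overlapped.

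Most of these genes have a related gene with the same or a partner role in the same step, and the balance within such pairs was also compared. The ratio of member to paralog does not depend on the scaling of a library except through the pseudocount. Over 8 pairs, 6 had groups that did not overlap, each with an exact two-sided permutation p of 0.029 (0.038 after Benjamini-Hochberg adjustment over the 8 pairs). No share of other gene pairs was computed to read this count against, and 1 of the 6, Chst3 to Chst7, only repeats Chst3. These pairs were taken up after the values had been seen.

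Xylt1 and Xylt2, the xylosyltransferase genes, moved apart. Xylt2 was higher (14.4 ± 0.848 to 20.6 ± 1.04 TPM, SD, n = 4), and the share of Xylt1 in their summed TPM went from 17.4 ± 3.27% to 7.04 ± 4.04%. The log2 ratio changed by -1.19 (SE 0.31). Chsy1 and Chsy3 were both higher, but Chsy3 rose more, from 5.39 ± 0.816 to 14.0 ± 0.832 TPM (SD, n = 4; log2 fold change 1.24, limma adjusted p = 6.3e-06), and the share of Chsy1 went from 89.3% to 79.1%.

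The share of Papss2 among the PAPS synthase transcripts went from 43.3 ± 0.930% to 34.8 ± 1.56%, a change of the log2 ratio of -0.50 (SE 0.05). Ext2, the other subunit of the heparan polymerase, was higher by less than Ext1 (110 to 143 TPM, log2 fold change 0.36), so the log2 ratio of Ext1 to Ext2 changed by 0.38 (SE 0.06). Csgalnact1 lost a little ground to Csgalnact2 (change of the log2 ratio -0.16, SE 0.03). Chst3 stood against a Chst7 near 0 (0.015 and 0.028 TPM), so its ratio repeats the change of Chst3 itself.

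For the remaining pairs no change of balance was found. Chpf and Chpf2 rose together, Chpf2 from 80.2 ± 0.936 to 116 ± 2.60 TPM (SD, n = 4), and the log2 ratio changed by 0.01 (SE 0.03, exact p = 0.86). Chst11 and Chst12, genes for chondroitin 4-O-sulfotransferases, had a log2 ratio that changed by -0.0014 (SE 0.23, exact p = 1.0). Chst12 stood at 84.9 ± 3.20 and 81.3 ± 2.48 TPM (SD, n = 4).

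**Figure D3:**
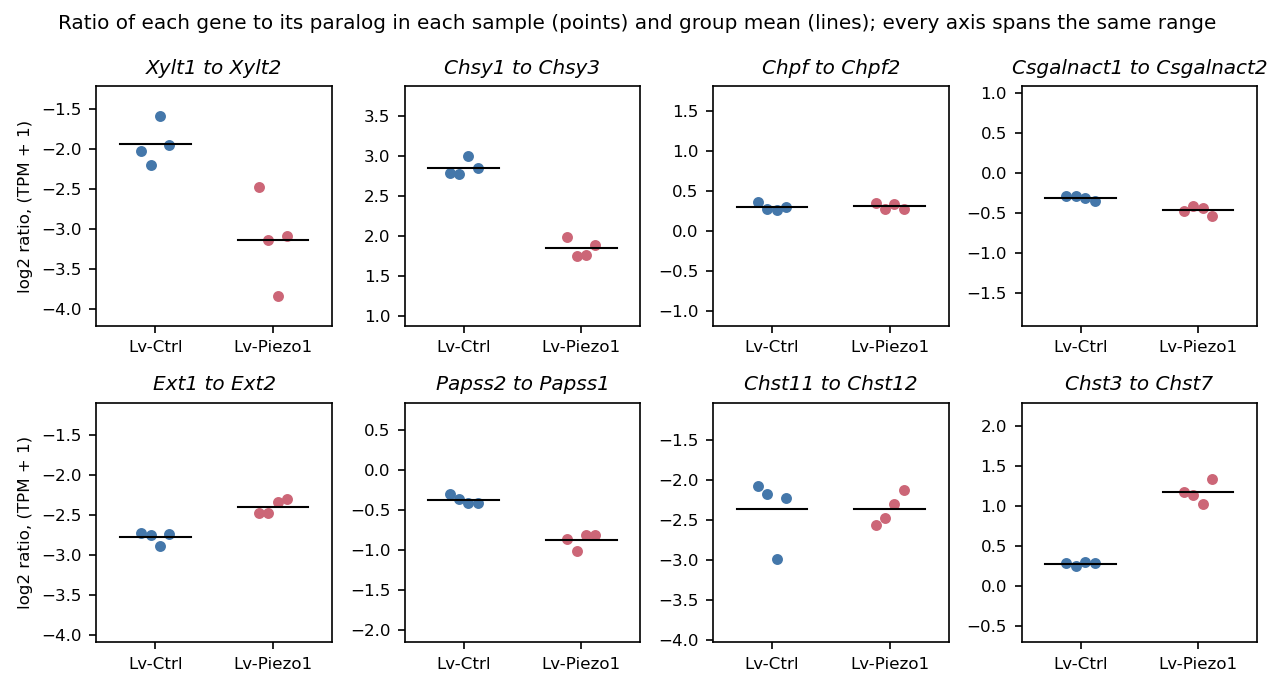
Log2 ratio of each member to its paralog, log2(TPM + 1) of the member minus that of the paralog, in each of the 4 Lv-Ctrl and 4 Lv-Piezo1 samples (points), with group means as lines and the same span on every vertical axis. The ratio of Chpf to Chpf2 is level between the groups, while those of Xylt1 to Xylt2, Chsy1 to Chsy3 and Papss2 to Papss1 are lower in Lv-Piezo1 and that of Ext1 to Ext2 is higher.

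The rest of the synthesis pathway, 68 other genes of which 49 were tested, had 22 higher, 8 lower and 19 not passing. The median log2 fold change was 0.12 beside 0.14 for all genes. The counts of this and the following lists stand beside 41.9% higher and 16.3% lower among all tested genes. Over all these lists, breakdown and core protein genes included, 36 were higher and 20 lower, but 29 and 35 after median-ratio scaling. That scaling gave 3657 higher and 3651 lower genes among all 13103 tested, so the shares above apply only to the deposited scale. In the supply of sugar nucleotides and sulfate, 9 of 18 tested genes were higher and 4 were lower. Gfpt1 and Gfpt2, which control entry into hexosamine synthesis, went opposite ways: Gfpt1 from 38.7 ± 5.01 to 27.8 ± 2.05 TPM and Gfpt2, far less abundant, from 1.58 ± 0.0998 to 3.17 ± 0.478 TPM (SD, n = 4). The nucleotide sugar transporter genes Slc35d1 and Slc35d2 also differed in direction, with log2 fold changes of -0.35 and 0.36.

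In the linkage list 3 of 5 tested genes were higher and 1 was lower. Beside Xylt2, the xylose kinase gene Fam20b was higher (log2 fold change 0.39, limma adjusted p = 7.9e-04), and B3gat3, whose product adds the glucuronic acid that completes the linkage, was lower (-0.21, limma adjusted p = 0.0016). B3galt6, a galactosyltransferase gene of the same linkage, was listed at 0 in every sample.

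Among the other chondroitin and dermatan genes, 4 of 9 tested were higher and 0 were lower, and 5 did not pass. Of these, only Chsy3 had a log2 fold change above 1. Chst14, which encodes the dermatan 4-O-sulfotransferase, was higher at 26.6 ± 3.37 against 17.8 ± 1.40 TPM (SD, n = 4; log2 fold change 0.55, limma adjusted p = 8.5e-04).

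In the heparan list 12 of 22 genes were tested, of which 3 were higher, 2 were lower and 7 did not pass. Extl3, whose product starts heparan chains, was higher beside Ext1 and Ext2 (40.0 ± 3.04 to 61.8 ± 2.70 TPM, SD, n = 4; log2 fold change 0.62). The genes that fell act on 6-O-sulfate: Hs6st1, which adds it, by 0.57 on the log2 scale, and Sulf2, an extracellular enzyme that removes it, by 1.09 (limma adjusted p = 8.5e-06 and 4.9e-06). Sulf2 stood at 12.8 and 5.49 TPM. Its relative Sulf1 was far more abundant, at 275 ± 26.1 and 291 ± 12.3 TPM (SD, n = 4), and did not pass (log2 fold change 0.08, limma adjusted p = 0.33).

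The keratan list had 3 higher and 1 lower of 5 tested genes. B4galt4, a galactosyltransferase gene, rose from 76.1 ± 15.9 to 251 ± 40.9 TPM (SD, n = 4) and the sulfotransferase gene Chst5 from 1.73 to 5.88 TPM, with log2 fold changes of 1.72 and 1.34, while B4galt1, which serves many glycans, was lower (-0.42).

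Genes for the breakdown of the chains, all 16 tested, were split into 6 higher, 4 lower and 6 not passing, with a median log2 fold change of 0.00012. Galns, which removes 6-sulfate, was higher at 20.1 ± 0.438 against 13.3 ± 0.507 TPM (SD, n = 4; log2 fold change 0.57, limma adjusted p = 5.2e-06). Hpse, the heparanase gene, fell by 1.47 and Arsk by 0.45 on the log2 scale.

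The core proteins that carry the chains moved in both directions. For chondroitin and dermatan carriers 5 of 12 tested genes were higher and 4 lower, with Smoc2 at 1.75, Esm1 at -0.54 and decorin (Dcn) at -1.49 on the log2 scale. The count of higher genes includes Spock2 (0.338 and 1.67 TPM), which reached the filter through its level in Lv-Piezo1 and so had to differ. For heparan carriers 3 of 10 were higher and 4 lower: the syndecan genes Sdc3 and Sdc1 had log2 fold changes of 1.68 and 0.79, and Gpc1 (glypican 1) and Col18a1 had -0.68 and -0.36. The median log2 fold changes of the carrier lists were -0.10 and -0.05, both below the 0.14 of all genes.

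**Figure D4:**
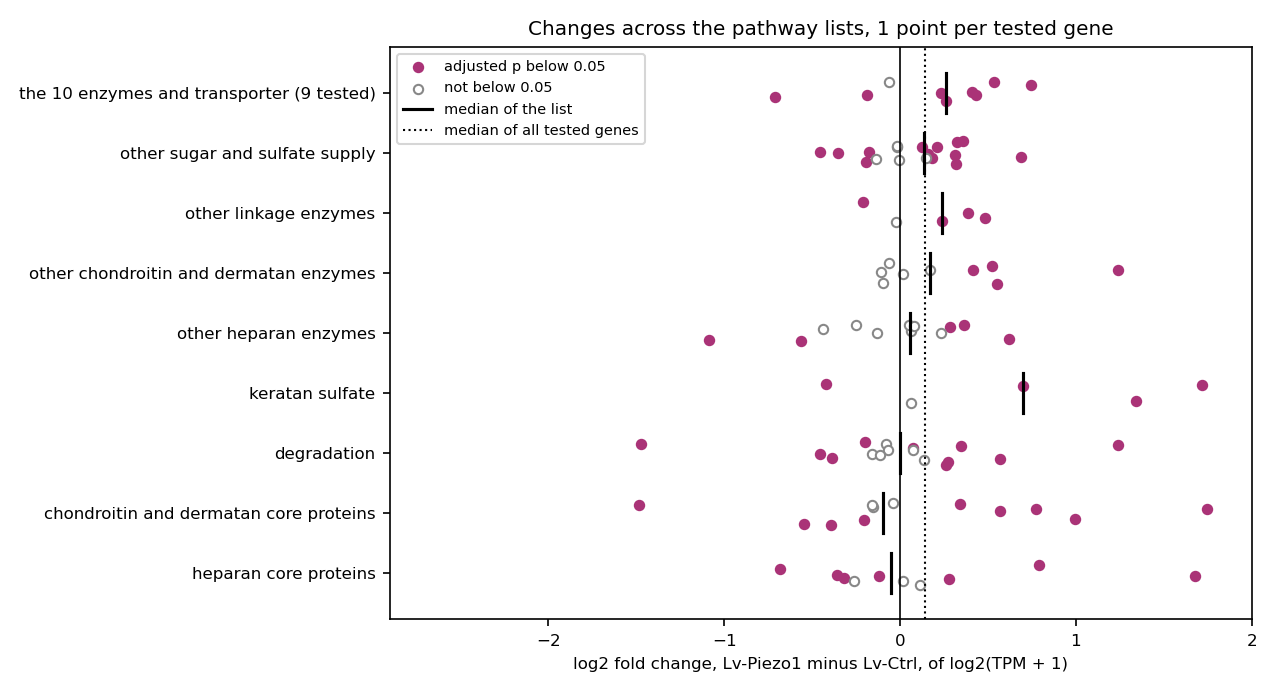
Log2 fold change, Lv-Piezo1 relative to Lv-Ctrl (on the log2(TPM + 1) scale), of every tested gene in the members and in each list of the pathway. Each point is a gene, filled where its adjusted p was below 0.05. Short lines are list medians and the dotted line is the median of all tested genes. The 9 tested members lie between -0.71 and 0.74, within the span of the other lists, which reach 1.75 for Smoc2 and -1.49 for Dcn.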

How the data were processed

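RNA of stretched rat AFCs was sequenced in 4 Lv-Ctrl and 4 Lv-Piezo1 samples. According to the study's methods, reads were cleaned, aligned to the rat reference genome with HISAT2 and assembled with StringTie. The deposited values are TPM per gene, rounded by the authors to 2 decimals, although the methods name FPKM. The submitters' processing notes list DESeq2 and the mouse build mm10, while the rows carry rat Ensembl identifiers. TPM keeps no depth, so reads per sample are unknown and no counting interval is given. Strand was not stated.

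TPM was analysed as log2(TPM + 1). Genes with a mean of at least 1 TPM over the 8 samples (13103 of 31699 rows) were fitted with limma 3.58.1 in R 4.3.3 (moderation with a trend, Benjamini-Hochberg adjustment over all tested genes, adjusted p below 0.05, read both at any size and with a log2 fold change of 1 or more in either direction). Fold changes on this scale understate those of low genes. Single genes were compared by exact two-sided permutation of means over 70 relabelings, where the smallest possible p is 0.029. On simulated data with 200 changed genes, 198 were recovered and 0 unchanged genes were called. Calls were counted there with the log2 fold change threshold of 1, and every planted change was larger than it. These counts do not describe calls at any size or changes as small as those of the members. Alternatives covered the pseudocount, filter, scaling, moderation, block and leaving out each sample. The members and lists were chosen with earlier results of these data known. Named beside the members were up to 2 rises and 2 falls per list, of which 1 is not reported here. Same-numbered samples of the 2 groups did not deviate together (r -0.06 to -0.01), so the numbers were not used as pairs. Promoter windows are from RefSeq (GRCr8).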

Additional observations from a re-analysis of the deposited data

Results flagged for a closer look

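Of 78 groups of 4 samples, over 39 genes named in the text, 6 held a sample whose gap to its nearest neighbour exceeded Dixon's 95% critical value as a share of the group's range. Chance gives such a sample in about 1 group of 20. Among the members, Ugdh in Lv-Piezo1 replicate 4 stood at 57.7 TPM above the other 3 samples at 51.4 to 52.1, and Chpf in Lv-Ctrl replicate 1 stood at 103 TPM above 97.2 to 98.1. Lv-Ctrl replicate 3 was low for Ext1 (13.7 TPM against 15.8 to 15.9), for Papss2 (23.1 TPM against 25.1 to 25.4) and for the core protein gene Dcn (1352 TPM against 1483 to 1498). Sdc1 in Lv-Piezo1 replicate 1 was low at 89.8 TPM, against 92.6 to 93.2 in the other 3 samples. Lv-Ctrl replicate 3 was the lowest of its group for 8 of the 10 members and for 48.5% of all tested genes, and Lv-Piezo1 replicate 4 was the highest of its group for 8 of the 10 members and for 42.7% of all tested genes.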

How the results depend on the processing

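The changes of Chpf, Ugdh, Ext1 and Piezo1 kept their direction and their call under every alternative run. Their log2 fold changes were 0.52 to 0.55, 0.39 to 0.46, 0.69 to 0.77 and 0.33 to 0.43 when 1 sample was left out. Median-ratio scaling made them smaller, at 0.37, 0.27, 0.59 and 0.22 in the same order. Leaving out 1 sample gave 5 to 6 members higher and 0 to 2 lower, 0 past a log2 fold change of 1 in either direction, and 32 to 35 higher and 20 to 28 lower among the other genes of the pathway. Chst11 changed sign, to 0.020 without Lv-Ctrl replicate 1 and 0.019 without Lv-Ctrl replicate 2, stood at -0.26 without Lv-Ctrl replicate 3, and its ratio to Chst12 changed sign under median-ratio scaling (0.0074). The number of members called lower went from 2 to 1 with no filter (Xylt1, adjusted p 0.061), with a mean TPM of at least 5, which removes Xylt1, and with the replicate block. In the replicate block fit 5 members were higher, as Csgalnact1 (adjusted p 0.052) and Xylt1 (0.060) were no longer called. Quantile normalization left 3 members higher, since Chsy1, Csgalnact1 and Slc26a2 (adjusted p 0.092, 0.16 and 0.13) lost their call. The other pathway genes went from 36 higher and 20 lower to 30 higher and 35 lower there. After median-ratio scaling they were 29 higher and 35 lower, so that the majority turned under both. All tested genes went from 5489 higher and 2137 lower to 3757 and 3579 under quantile normalization and to 3657 and 3651 after median-ratio scaling. With a pseudocount of 0.1, Xylt1 passed the fold threshold (1 gene lower), and without the 100 genes of highest TPM Chst3 passed the filter, through its level in Lv-Piezo1 and so with a direction fixed by the filter, and the threshold (1 gene higher). Over all genes, 644 rose and 361 fell past that threshold, 514 and 468 after median-ratio scaling, and 463 and 485 after quantile normalization. The causes of these shifts were not tested beyond what each alternative changes by construction. Depth is unknown, so the precision of Chst3, Slc26a2 and Xylt1, all below 4 TPM, cannot be set from counting.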

Other observations

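The nearest protein-coding genes on either side of each member in the RefSeq order were looked up after the values had been seen. Noncoding genes and genes with a LOC symbol were skipped, and only some of the neighbours are given here. Chst3 lies beside Spock2, a testican gene, and both were low in Lv-Ctrl and higher in Lv-Piezo1: Spock2 stood at 0.338 ± 0.0512 and 1.67 ± 0.0842 TPM (SD, n = 4). Spock2 reached the filter through its level in Lv-Piezo1, so no test is given for it. Psap, on the other side of Chst3, stood at 1153 and 1289 TPM (log2 fold change 0.16). Chst11, which did not pass the test, lies between Slc41a2 and Txnrd1, which did, with log2 fold changes of 0.59 and 0.52. Ext1 lies beside Med30, which stood at 30.0 and 28.3 TPM (log2 fold change -0.08, limma adjusted p = 0.18). Papss2 lies between Minpp1 (log2 fold change 0.21) and Atad1 (-0.25, limma adjusted p = 0.025).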
